A study of Mus musculus with 6 samples.

Results

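Immune cell genes of the mouse bladder at embryonic day 18.5 were followed as a set of 32 genes, chosen by name: 21 of macrophages and leukocytes at large, 4 of mast cells, 2 of lymphoid cells and 5 of antigen presentation. All 32 had a probe set among 18193 genes on the array, and 29 were bright enough to be tested. Bladders of Get1 -/- embryos (3 arrays, numbered 1 to 3) were compared with bladders of Get1 +/- embryos (3 arrays, numbered 4 to 6). Get1, or Grhl3, is a transcription factor of the grainyhead-like family, known for its role in epithelial barriers. The labels name the allele only as -/- or +/-, so the Get1 +/- embryos carry 1 copy of it and no wild-type bladder was analysed here. They do not say whether an array held 1 bladder or several.

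Macrophages settle in developing organs before birth, depend on the receptor encoded by Csf1r, clear dying cells and secrete the complement subunit C1q. Mast cells lie in connective tissue and store proteases in their granules. Genes of antigen presentation are of another kind, since nearly all nucleated cells load peptides onto class I molecules, and interferon raises the rate. Values are probe set signals on a linear scale, and differences are Get1 -/- minus Get1 +/- of log2(signal + 16), tested with limma over 12735 genes with Benjamini-Hochberg adjustment. In whole tissue, fewer cells of a type and less RNA per cell cannot be told apart.

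Median signals over all non-control probe sets were 58.0 to 70.3 on the Get1 -/- arrays and 64 to 72.1 on the Get1 +/- arrays. The Grhl3 probe set read 76.6, 21.5 and 119.7 in Get1 -/- bladders and 143, 133 and 125.6 in Get1 +/- bladders, a difference of -0.95 (limma adjusted p = 0.655). The 2 groups did not overlap, and the labels do not say whether the probes lie in the altered stretch of Grhl3, so that these signals check the labels only in part. Array 6 of Get1 +/- stood apart: it held the highest of the 6 values for 32.2% of all genes tested, while arrays 4 and 5 of the same genotype did so for 13.4% and 16.3%. Differences without array 6 are plotted for every tested gene of the set and given in the text where it moved them most. The titles also carry a first number, which is 1 for Get1 -/- array 1 and 2 for the other 5 arrays, and the labels do not say what it means.

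The macrophage genes were measured on every array and none of them was called. For the macrophage growth factor receptor Csf1r, the C1q chains and the lysozymes, array 6 of Get1 +/- was high and the groups overlapped. The 3 tested mast cell proteases averaged 1.91-fold to 2.05-fold more in Get1 +/- than in Get1 -/- bladders, also without passing the test. The T cell gene Cd3e and the B cell gene Cd79a were too dim to be tested. Over all 29 tested genes, 0 were higher and 0 lower at an adjusted p under 0.05 (limma, lowest adjusted p 0.559), where 0.448% of all genes tested were higher and 0.0628% lower. At an unadjusted p under 0.05 there were 2, Cma1 and Psmb9, or 6.90% against 7.93% of all genes tested. The 95% interval of the difference lay within -1 to 1, a 2-fold change either way, for 11 of the 29 genes, and a change beyond that size was within the interval of the other 18.

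**Figure D1:**
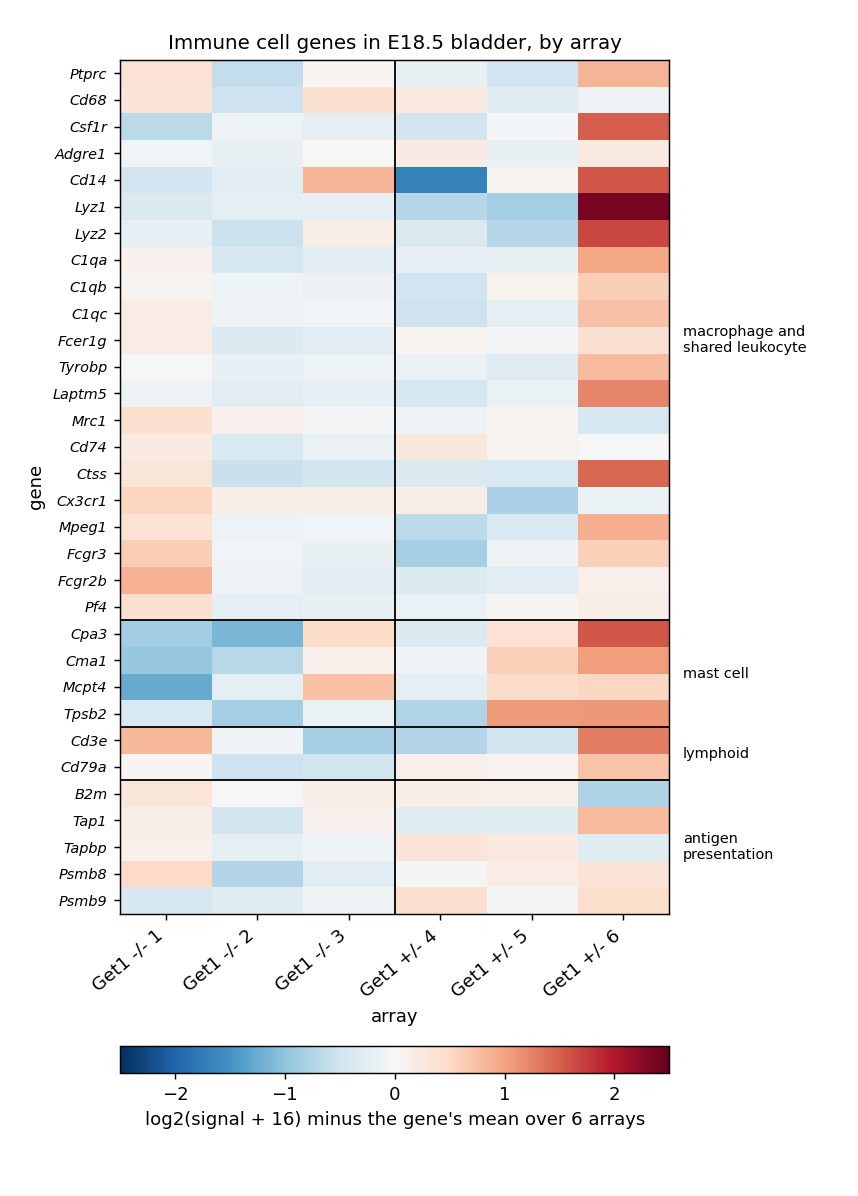
Each cell is the log2(signal + 16) of 1 gene on 1 array minus that gene's mean over the 6 arrays, with Get1 -/- arrays left of the vertical line and Get1 +/- arrays right of it. Horizontal lines part the 4 groups of genes. The column of array 6 is the highest for 14 of the 21 macrophage and shared leukocyte genes.

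Csf1r, the receptor for the growth factors that keep macrophages alive, gave signals of 1568, 2305 and 2155 in Get1 -/- bladders and 1818, 2448 and 7247.5 in Get1 +/- bladders. The groups overlapped, and array 6 exceeded the mean of arrays 4 and 5 by 3.42-fold. The difference was -0.68 (95% interval -1.80 to 0.44, limma adjusted p = 0.801) with all arrays and -0.09 without array 6. The other 2 Csf1r probe sets were also highest on array 6, at 2486 and 257.

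Adgre1 and Mrc1, other surface receptors, varied less between arrays. Adgre1, which encodes the macrophage marker F4/80, read 187, 171 and 197 in Get1 -/- bladders and 228.5, 169.6 and 231 in Get1 +/- bladders, and its difference of -0.16 had a narrow interval of -0.66 to 0.34. Mrc1, the mannose receptor of resident macrophages, read 3689.9, 3013 and 2692 in Get1 -/- bladders and 2585, 2931 and 2071 in Get1 +/- bladders, with a difference of 0.31 (-0.24 to 0.86). Unlike Csf1r, it was lowest on array 6.

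Cx3cr1, a chemokine receptor of microglia and some tissue macrophages, had the highest difference of the macrophage genes, 0.54 (limma adjusted p = 0.734). Its signals were low throughout, 71.2, 50.4 and 50.2 in Get1 -/- bladders and 51.4, 18.3 and 37.7 in Get1 +/- bladders, and a second, dimmer probe set went the other way (-0.58). Cd14, a co-receptor for bacterial lipopolysaccharide, ranged most widely of the surface receptors: 101, 119 and 277 in Get1 -/- bladders and 34.4, 153 and 465 in Get1 +/- bladders. Its difference was 0.06 with all arrays and 0.85 without array 6 (limma adjusted p = 0.995 and 0.771). Ptprc, the CD45 phosphatase of all leukocytes, read 284, 136 and 224 in Get1 -/- bladders and 189, 151 and 404 in Get1 +/- bladders, again with overlap, and differed by -0.13 with all arrays and 0.26 without array 6.

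Fc receptors bind antibody, and the adaptors Fcer1g and Tyrobp pass on the signals of many activating receptors. Fcgr3 read 833, 507 and 466 in Get1 -/- bladders and 294, 492 and 819 in Get1 +/- bladders. Fcgr2b, the inhibitory receptor, read 187, 86.2 and 76.6 in Get1 -/- bladders and 72.0, 76.6 and 106 in Get1 +/- bladders. Both were highest on array 1, and their differences were 0.23 and 0.32 (limma adjusted p = 0.945 and 0.885), or 0.59 and 0.46 without array 6. Fcer1g and Tyrobp were both highest on array 6, with differences of -0.28 and -0.21 with all arrays and -0.15 and 0.14 without it.

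Lysozymes, which break down bacterial walls, were high on array 6. Lyz2, the lysozyme of macrophages, read 451, 358 and 581 in Get1 -/- bladders and 405, 311 and 1697 in Get1 +/- bladders. Lyz1, the neighbouring gene known as the lysozyme of Paneth cells in the gut, read 1539, 1672 and 1719 in Get1 -/- bladders and 1196, 1082 and 10271 in Get1 +/- bladders. Array 6 thus exceeded the mean of arrays 4 and 5 by 8.92-fold for Lyz1 and 4.62-fold for Lyz2.

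The Lyz1 probe set used is of a type that can match related transcripts, as is a second one that read 9375 on array 6. The third Lyz1 probe set, of the plain type, gave 19.2, 21.2 and 31.6 in Get1 -/- bladders and 45, 27.8 and 40.6 in Get1 +/- bladders and did not follow array 6. Its mean log2 of 5.52 was under the 5.80 of the dim filter, so it says little about Lyz1. How far the Lyz1 and Lyz2 signals overlap was not tested, and both genes enter the counts, medians and sums of the set. Differences were -0.53 for Lyz1 and -0.39 for Lyz2 (limma adjusted p = 0.928 and 0.930), and without array 6 they were 0.52 and 0.34.

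The bases before the start of both genes are shown because both were high on array 6. They are from RefSeq (GRCm38.p6, minus strand), 250 bases each, at chr10:117282273-117282522 for Lyz2 and chr10:117292869-117293118 for Lyz1. Capitals mark ACTTCC, the reverse complement of GGAAGT, a core that ETS factors such as PU.1 of macrophages bind.
Lyz2: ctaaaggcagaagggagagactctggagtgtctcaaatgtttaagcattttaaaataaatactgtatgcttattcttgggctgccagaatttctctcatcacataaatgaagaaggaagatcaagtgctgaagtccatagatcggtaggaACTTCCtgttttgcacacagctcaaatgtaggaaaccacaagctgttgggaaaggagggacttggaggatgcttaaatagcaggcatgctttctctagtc
Lyz1: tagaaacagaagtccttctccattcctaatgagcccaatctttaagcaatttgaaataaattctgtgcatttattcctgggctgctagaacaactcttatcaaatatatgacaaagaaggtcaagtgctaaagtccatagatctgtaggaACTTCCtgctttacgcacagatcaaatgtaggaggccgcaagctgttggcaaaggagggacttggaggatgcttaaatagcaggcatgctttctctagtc
The aligned pair was identical at 200 of 252 positions (79.4%), and each holds the core once.

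The core GGAAGT, on either strand, was in the 250 bases before a start of 9 of the 15 macrophage and shared leukocyte genes that had a sequence. It was there for 19.7% of all 32851 starts. A gene counted if any of its starts held the core, so the count of genes and the share of starts are unlike measures. Beside the lysozymes the 9 genes were C1qb, C1qc, Fcgr2b, Laptm5, Mrc1, Pf4 and Ptprc. Of these, Fcgr2b, Mrc1 and Pf4 were highest on array 1 and the others on array 6.

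Ctss, a protease that trims the class II invariant chain, read 2342, 1272.5 and 1377 in Get1 -/- bladders and 1469, 1456 and 5147 in Get1 +/- bladders. Laptm5, a lysosomal membrane protein of blood cells, read 2246, 2024 and 2131 in Get1 -/- bladders and 1812, 2193 and 5715 in Get1 +/- bladders. Both were more than 2 times as high on array 6 as on any other array, and their differences were 0.13 and 0.10 without it. Mpeg1, a pore-forming protein of phagosomes, read 204, 141 and 149 in Get1 -/- bladders and 91.6, 115 and 307.5 in Get1 +/- bladders, with a difference of 0.10 with all arrays and 0.59 without array 6. Cd68, a lysosomal glycoprotein widely used to stain macrophages, did not share this: its signals were 205, 108 and 214 in Get1 -/- bladders and 193.5, 127 and 147 in Get1 +/- bladders.

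C1qa, C1qb and C1qc encode the 3 chains of C1q, and their differences were -0.37, -0.13 and 0.02 with all arrays and 0.02, 0.14 and 0.39 without array 6. C1qb read 8719.6, 7722 and 7539 in Get1 -/- bladders and 5892, 8902 and 12780.1 in Get1 +/- bladders. All 3 chains were highest on array 6, where they exceeded the mean of arrays 4 and 5 by 2.26-fold, 1.76-fold and 2.17-fold. Pf4, a chemokine of platelets and of fetal macrophages, was close to equal, with a difference of -0.01 (-0.58 to 0.57). Cd74, the invariant chain of class II molecules, read 111, 68.5 and 82.9 in Get1 -/- bladders and 118.5, 101 and 94.0 in Get1 +/- bladders.

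Across the 21 macrophage and shared leukocyte genes, 8 differences were above 0 and 13 below it, with a median of -0.13 and a range of -0.68 to 0.54, beside a median of -0.03 over all genes tested. Groups overlapped for all 21. Array 6 was the highest of 6 for 14 of them (66.7%, against 32.2% of all genes tested). It exceeded the mean of arrays 4 and 5, taken on the log2 scale, by over 2-fold for 12 (57.1%, against 8.29%). Without array 6 the median was 0.14, 17 differences were above 0, and 0 genes were called (limma, where 0.33% of all genes tested were then called higher and 0.055% lower). The sign of the median thus depended on that array.

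**Figure D2:**
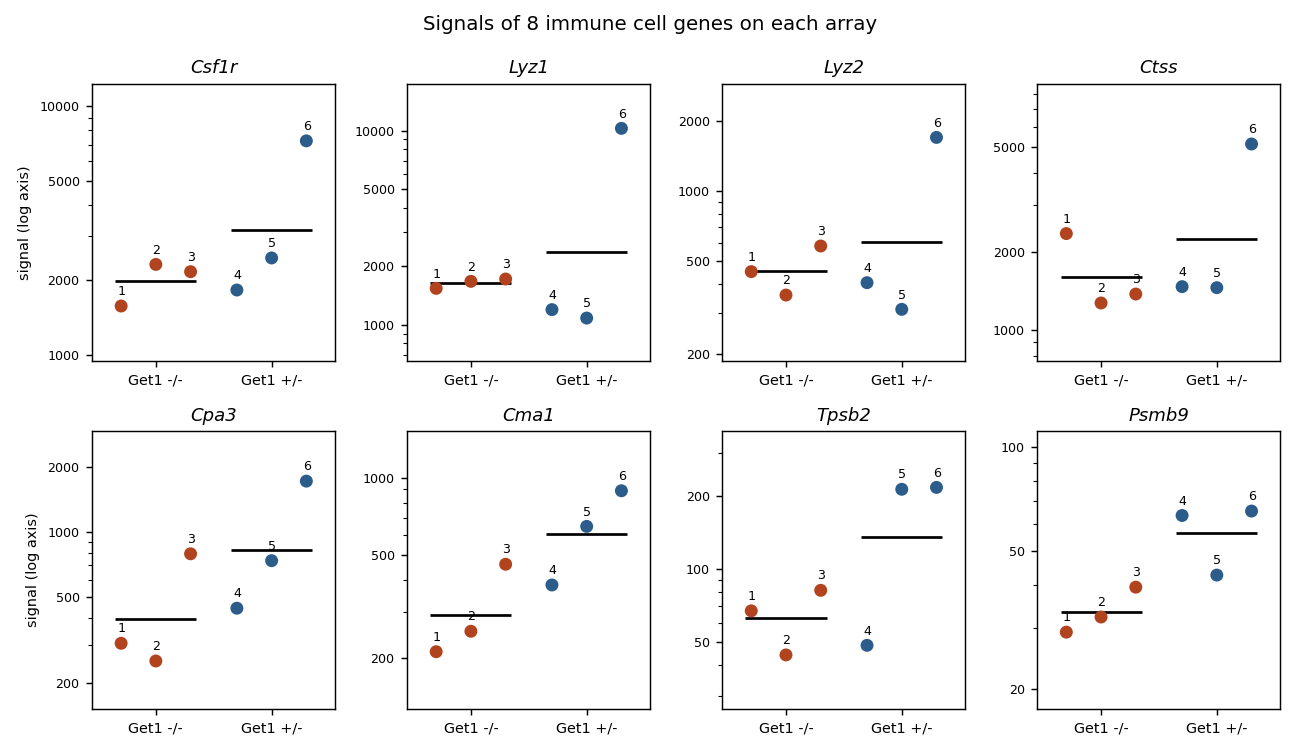
Signals on each array (log axis) of 8 genes, with Get1 -/- arrays 1 to 3 at left and Get1 +/- arrays 4 to 6 at right of each panel. Bars are group means taken on the log2(signal + 16) scale. Array 6 is apart for Csf1r, Lyz1, Lyz2 and Ctss, the mast cell genes Cpa3, Cma1 and Tpsb2 overlap between genotypes, and Psmb9 does not.

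All 4 mast cell genes averaged lower in Get1 -/- bladders, and 0 of the 3 tested passed. Cma1, the chymase of connective tissue mast cells, read 211, 253 and 461 in Get1 -/- bladders and 383, 646.5 and 889 in Get1 +/- bladders. Only Get1 -/- array 3 reached into the range of the Get1 +/- arrays. Its log2 level was 8.27 ± 0.56 in Get1 -/- and 9.28 ± 0.60 in Get1 +/- bladders (SD, n = 3 each), a difference of -1.01 (95% interval -1.91 to -0.12, limma adjusted p = 0.559, exact permutation p = 0.2).

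Cpa3, the granule carboxypeptidase that trims peptides after chymase, read 305, 252 and 792 in Get1 -/- bladders and 443, 736 and 1719 in Get1 +/- bladders. It differed by -1.04 (95% interval -2.34 to 0.27, limma adjusted p = 0.734). Tpsb2, a tryptase, read 67.1, 44.2 and 81.5 in Get1 -/- bladders and 48.4, 212 and 216 in Get1 +/- bladders, a difference of -0.94 (limma adjusted p = 0.726). Mcpt4, another chymase, was too dim for the test, at 7.0, 31.0 and 74.9 in Get1 -/- bladders and 30.7, 59.9 and 62.9 in Get1 +/- bladders.

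The highest array of each genotype was the same for all 4 genes: array 3 within Get1 -/- and array 6 within Get1 +/-. The median difference was -0.97 with all arrays and -0.57 without array 6, and all 4 differences stayed below 0. Removing array 6 took Cpa3 to -0.51, Cma1 to -0.74 and Tpsb2 to -0.62 (limma adjusted p = 0.831, 0.675 and 0.803). No difference was large enough against the spread between arrays to be called.

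Among 12 other genes of mast cells, 10 had a probe set and 5 were tested, of which 0 were called. At an unadjusted p under 0.05 (limma) there was 1, against 7.93% of all genes tested. Gata2, a transcription factor that mast cells need and that other bladder cells also express, read 2344, 2893 and 4126 in Get1 -/- bladders and 5554, 5644 and 5566 in Get1 +/- bladders. The groups were apart, at a difference of -0.88 (limma adjusted p = 0.380), and array 6 did not stand out. Hdc, the histamine-forming enzyme, and Srgn, the granule proteoglycan core, differed by -0.72 and -0.64 (limma adjusted p = 0.870 and 0.746). Both were highest on array 6, and without it they differed by -0.23 and -0.35. The median of the 5 tested genes was -0.64 with all arrays and -0.23 without array 6. Kitl, the ligand of the mast cell receptor Kit, differed by 0.29, or 0.06 without array 6. Fcer1a and Ms4a2, chains of an IgE receptor that mast cells carry, were below the dim filter.

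The bases before Cpa3 and Cma1 are shown because they had the largest differences of the set and because GATA factors act in mast cells. They are from RefSeq (GRCm38.p6, minus strand), 222 bases at chr3:20242210-20242431 for Cpa3, which leaves out bases inside the annotated gene, and 250 bases at chr14:55944676-55944925 for Cma1. Capitals mark AGATAA or TGATAA on either strand.
Cpa3: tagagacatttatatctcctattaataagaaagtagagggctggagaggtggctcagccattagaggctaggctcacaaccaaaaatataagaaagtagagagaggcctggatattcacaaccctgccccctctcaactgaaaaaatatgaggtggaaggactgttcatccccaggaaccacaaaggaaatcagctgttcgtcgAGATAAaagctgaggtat
Cma1: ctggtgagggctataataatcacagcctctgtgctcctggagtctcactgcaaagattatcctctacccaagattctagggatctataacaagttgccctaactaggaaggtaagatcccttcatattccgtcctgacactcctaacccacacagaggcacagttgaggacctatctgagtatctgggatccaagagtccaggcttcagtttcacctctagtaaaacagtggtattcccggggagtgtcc
Cpa3 holds AGATAA once and Cma1 holds neither AGATAA nor TGATAA. Other forms of the GATA site were not searched for, so Cma1 cannot be said to lack one. Of the 3 mast cell genes with a sequence, 2 (Cpa3 and Mcpt4) hold AGATAA or TGATAA, and 16.6% of all starts do. Here too a gene counted if any of its starts held a form, unlike the share of starts.

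The lymphoid genes were near the lowest signals. Cd3e, a chain of the T cell receptor complex, read 36.7, 12.2 and 0.8 in Get1 -/- bladders and 1.8, 5.8 and 55.9 in Get1 +/- bladders. Cd79a, a chain of the B cell receptor, read 10.6, 2.2 and 2.9 in Get1 -/- bladders and 12.1, 11.5 and 26.5 in Get1 +/- bladders. Both were below the dim filter (a signal of 39.7 on the mean log2 scale) and were not tested, although the groups of Cd79a did not overlap.

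The antigen presentation genes held the only tested member whose groups were apart, 1 of 29 (3.45%) against 13.4% of all genes tested, and 7.36% for groups apart with Get1 -/- lower. Psmb9, a catalytic subunit of the immunoproteasome, read 29.2, 32.3 and 39.4 in Get1 -/- bladders and 63.5, 42.7 and 65.4 in Get1 +/- bladders. Every Get1 -/- array was below every Get1 +/- array, by a small margin. The log2 level was 5.63 ± 0.15 in Get1 -/- and 6.18 ± 0.26 in Get1 +/- bladders (SD, n = 3 each). The difference of -0.55 (95% interval -1.08 to -0.03) did not pass (limma adjusted p = 0.603, exact permutation p = 0.1, which is as low as 6 arrays can reach), and the signals were close to the dim filter.

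Tap1, a subunit of the transporter that carries peptides to class I molecules, starts from the other side of the same short stretch of DNA. It read 108, 63.6 and 103 in Get1 -/- bladders and 73.5, 73.3 and 173 in Get1 +/- bladders, with a difference of -0.12 (limma adjusted p = 0.972), or 0.24 without array 6, and overlapping groups. Whether the pair of neighbours differ from each other was not tested. Psmb8, a further immunoproteasome subunit, read 166, 61.8 and 91.5 in Get1 -/- bladders and 111, 131 and 145 in Get1 +/- bladders, a difference of -0.33.

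The 225 bases between Psmb9 and Tap1 are shown because both genes are read from them, in opposite directions (RefSeq, GRCm38.p6, chr17:34187331-34187555, plus strand, on which Tap1 is read). Capitals mark CCGCCC, the reverse complement of the GC box GGGCGG.
Psmb9-Tap1: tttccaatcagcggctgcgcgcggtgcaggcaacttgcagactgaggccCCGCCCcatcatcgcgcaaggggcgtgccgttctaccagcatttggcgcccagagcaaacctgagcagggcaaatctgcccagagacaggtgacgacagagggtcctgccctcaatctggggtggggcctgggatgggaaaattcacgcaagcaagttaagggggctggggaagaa
The stretch holds the GC box once, and 32.7% of all starts hold it in the 250 bases before them.

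B2m, the light chain of class I molecules, was lowest on array 6: it read 10566, 8639.5 and 9668 in Get1 -/- bladders and 9687, 9357 and 5038 in Get1 +/- bladders. Its difference was 0.32 with all arrays and 0.01 without array 6 (limma adjusted p = 0.868 and 0.993). Tapbp, which holds class I molecules to the transporter, read 5364, 4178 and 4513 in Get1 -/- bladders and 6174, 5834 and 3977 in Get1 +/- bladders, and it too was lowest on array 6, with a difference of -0.17 with all arrays and -0.36 without it. The median of the 5 genes was -0.17 with all arrays and -0.24 without array 6.

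**Figure D3:**
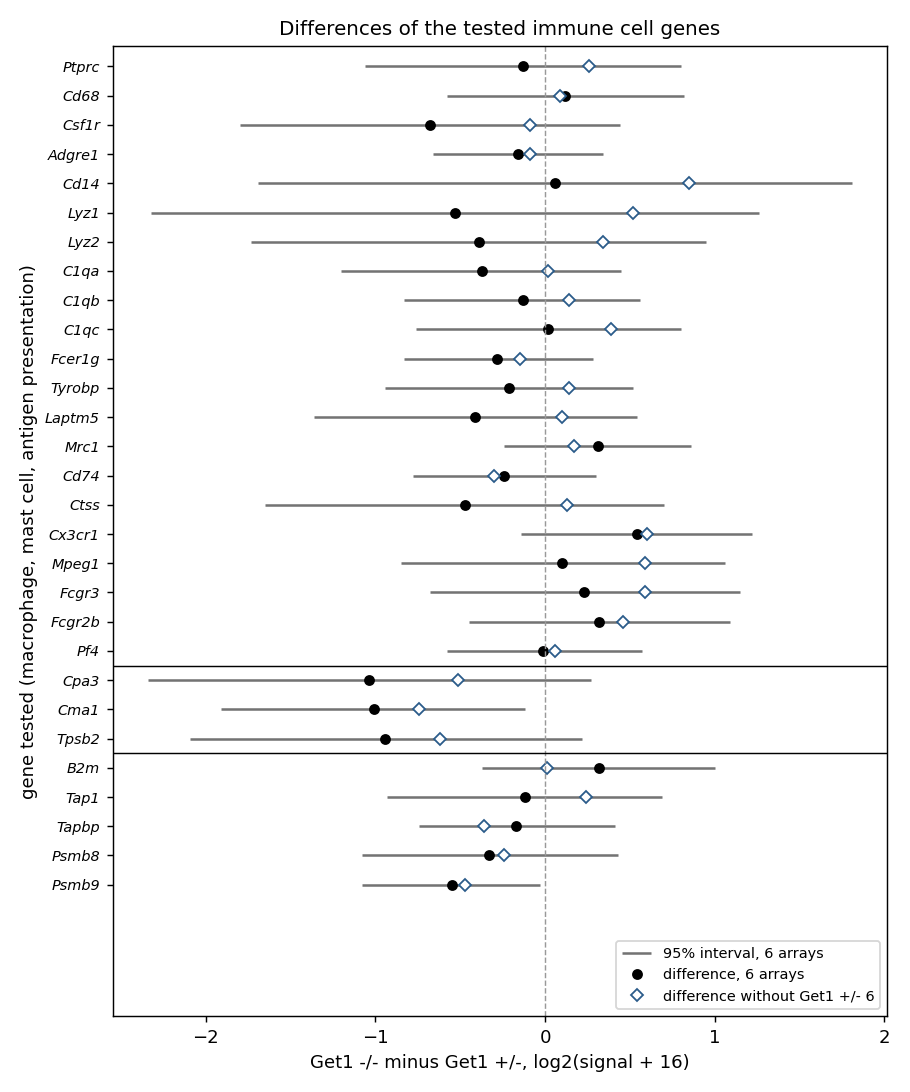
Difference between genotypes (Get1 -/- minus Get1 +/-, log2 scale) for the 29 tested genes, with the 95% interval from limma over 6 arrays as a line, the difference as a filled point and the difference without Get1 +/- array 6 as an open diamond. The intervals of Cma1 and Psmb9 alone leave out 0, without adjustment for the number of genes. Most diamonds of the macrophage genes lie right of their points.

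Further immune genes were read from 10 other lists, of which 155 entries were listed, 136 had a probe set and 85 were tested. Of these, 0 were called with all arrays (limma, 11 at an unadjusted p under 0.05, 12.9% against 7.93% of all genes tested). Groups were apart for 5 higher and 12 lower genes, 20.0% against 13.4% (6.07% higher and 7.36% lower) of all genes tested. Of 18 other macrophage genes tested, Clec4n, a C-type lectin receptor for fungi, came nearest: it read 145, 93.3 and 90.3 in Get1 -/- bladders and 42.5, 52.8 and 45.9 in Get1 +/- bladders, a difference of 0.97 (limma adjusted p = 0.280). Stab1, Folr2 and Lyve1, scavenger, folate and hyaluronan receptors of resident macrophages, differed by -0.48, -0.58 and -0.45 (limma adjusted p = 0.796, 0.748 and 0.746). All 3 were highest on array 6, and without it they differed by -0.10, -0.28 and -0.31. Not all of the list followed array 6: Clec4n was highest on array 1. The summed signal of the 23 genes with a probe set was 22193 on array 6 and 23045 on Get1 -/- array 1. The 18 genes had a median difference of -0.01 with all arrays and 0.07 without array 6.

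Among 14 tested growth factors, chemokines and their receptors, the median was -0.13, with 6 differences above 0 and 8 below it. The neutrophil attractant Cxcl1 differed by -0.96, the stromal chemokine Cxcl12 by -0.51, the interferon-induced Cxcl10 by -0.46 and the monocyte receptor Ccr2 by -0.73. Each had groups apart, as had 7.36% of all genes tested with Get1 -/- lower, and none was called (limma adjusted p from 0.553 to 0.692). Ccl6, a chemokine of macrophages, was picked out after its values were seen. It read 1508, 1875.5 and 1823 in Get1 -/- bladders and 367, 228 and 3808 in Get1 +/- bladders, so that array 6 lay above and arrays 4 and 5 below all Get1 -/- arrays. Its difference was 1.30 (limma adjusted p = 0.796) with all arrays and 2.51 (limma adjusted p = 0.0186) without array 6.

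S100a8 and S100a9 form calprotectin, which is abundant in neutrophils and is also made by stressed epithelium. S100a9 read 1551, 1646 and 2797 in Get1 -/- bladders and 398, 557 and 652 in Get1 +/- bladders, and S100a8 read 2041, 1876 and 3759 in Get1 -/- bladders and 648, 856 and 873 in Get1 +/- bladders. Both were apart between groups, with differences of 1.84 and 1.61 (limma adjusted p = 0.0613 and 0.125). The other tested neutrophil genes, Mpo and Ngp, had differences of 0.14 and 0.24 (limma adjusted p = 0.960 and 0.959), or 0.06 and 0.62 without array 6. The remaining 7 of the 11 with a probe set were below the dim filter and were not tested. Their differences ranged from -0.34 to 1.24. Which cells gave the S100a8 and S100a9 signals was not tested.

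On the same Get1 -/- arrays, gut epithelium markers were high: 11 of 14 tested were called higher (limma, against 0.448% of all genes tested). These were Cdx2, Vil1, Cdh17, Tff3, Muc2, Fabp1, Guca2a, Lgals4, Mptx1, Reg3b and Reg3g. Mmp7 and Fabp2 averaged 6.95-fold and 5.76-fold higher without being called (limma adjusted p = 0.0561 and 0.576), and Pigr differed by -0.15. The summed signal of 15 markers was 23666 to 40657 in Get1 -/- and 388 to 742 in Get1 +/- bladders. Of 8 urothelium markers 1 was called lower, Upk2 (limma, against 0.0628% of all genes tested). Upk1a averaged 5.14-fold lower in Get1 -/- bladders with groups apart, but was not called (limma adjusted p = 0.199). Differences were below 0 for 6 of the 8, and 2 had an unadjusted p under 0.05 (limma, against 7.93% of all genes tested). The summed signal of the 8 was 11942 to 13928 in Get1 -/- and 15774 to 22220 in Get1 +/- bladders. The part of gut epithelium or urothelium in the values of the immune genes was not tested. The summed signal of the 21 macrophage and shared leukocyte genes was 23587 to 28170 in Get1 -/- bladders and 20554, 24992 and 53672 in Get1 +/- bladders.

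**Figure D4:**
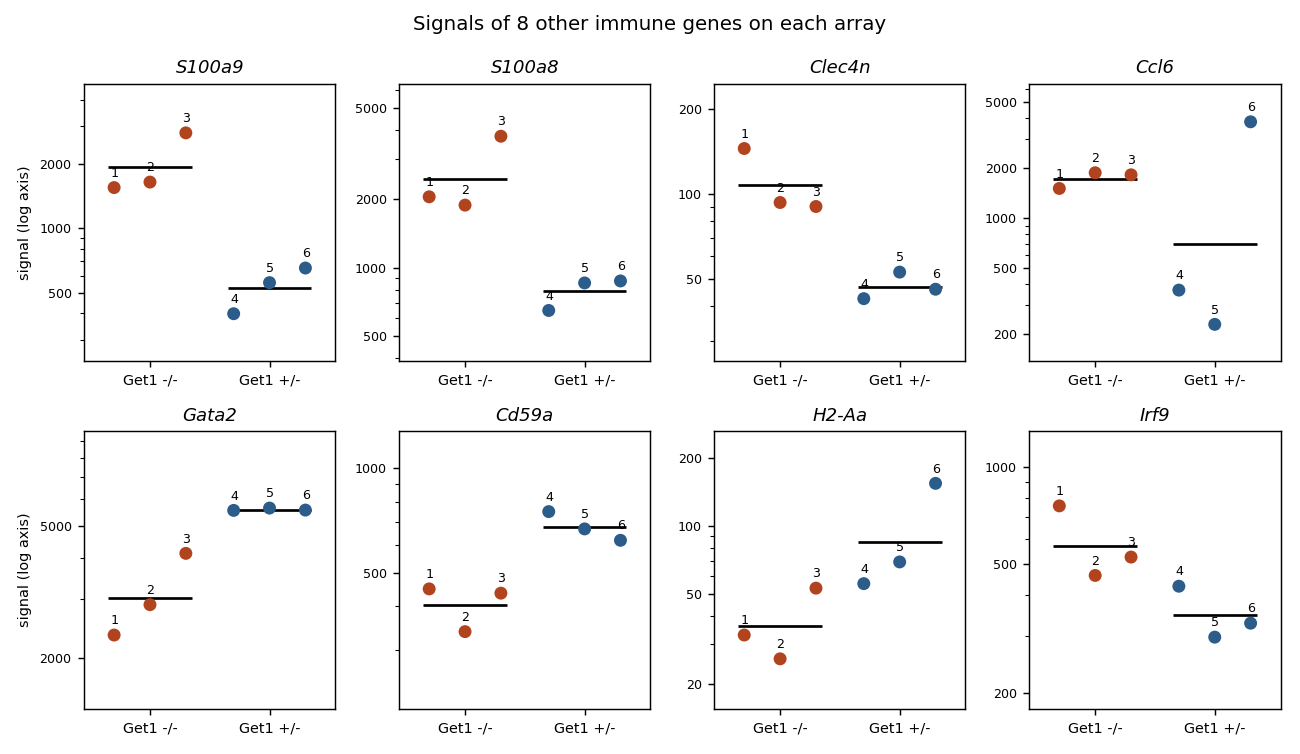
Signals on each array (log axis) of 8 immune genes outside the set, with Get1 -/- arrays 1 to 3 at left and Get1 +/- arrays 4 to 6 at right of each panel and bars at group means on the log2(signal + 16) scale. The genes were picked by their values: Ccl6 after its signals were seen, the others among those with the smallest limma p of their lists. Groups are apart for all but Ccl6, whose array 6 lies above the Get1 -/- arrays. They were apart for 13.4% of all genes tested and 20.0% of the 85 other immune genes tested. With all arrays, 0 of the 8 were called.

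Of the class II genes, 3 were tested and 0 called: H2-Aa read 32.9, 25.8 and 53.1 in Get1 -/- bladders and 55.6, 69.4 and 155 in Get1 +/- bladders, a difference of -0.96 with all arrays and -0.59 without array 6 (limma adjusted p = 0.558 and 0.631). H2-DMa and H2-Ab1 differed by -0.53 and -0.05. Of 10 other class I and peptide loading genes 0 were called, with a median of 0.01. H2-K1, a class I heavy chain, differed by 0.27, or 0.47 without array 6, and Psme1, Tapbpl and Canx by -0.19, -0.40 and 0.16 (limma adjusted p from 0.726 to 0.916).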

How the data were processed

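RNA of 6 bladder samples was measured on Affymetrix arrays, and groups and array numbers came from the sample titles. The authors deposited 1 linear intensity per probe set. Per the submitters' processing notes, Affymetrix Expression Console 1.1 and PLIER 2.0 were used, with no role named, and background correction and normalization are not given there.

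Of 45101 probe sets, 34945 had exactly 1 symbol in the platform annotation, and a gene was represented by its probe set with the highest mean. Values were taken as log2(value + 16), so folds of dim genes are understated. The dimmest 30% of genes were left out (a mean under 5.80), which removed Cd3e, Cd79a and Mcpt4. The test between genotypes was limma's moderated linear model (version 3.58.1, R 4.3.3, two-sided, adjusted over 12735 genes, threshold 0.05). It was also run on simulated data in which no array stood apart, so that run does not bear on array 6. Nothing says that the samples came from separate litters, so p-values measure only the spread between these arrays, and their number limits the precision. The second number of the titles is different for every array, and the first is 1 for Get1 -/- array 1 and 2 for all others. The genes of the set and all other lists were chosen with earlier results of these data known. All 32 genes were to be named, and from each other list the called genes and up to 4 more with the smallest p (Grhl3 apart, as the gene altered here). Ccl6, Fcer1a, Ms4a2 and Mx1 fell outside this rule and were chosen after their values were seen. Sequences matched 25 of the 32 genes by symbol, and positions were not used for the probes.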

Additional observations from a re-analysis of the deposited data

How the results depend on the processing

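Under 15 alternative fits (an offset of 1 or 64, no filter or the dimmest 50% left out, probe sets averaged, quantile normalization, centred arrays, array weights, a trended robust fit, and each of the 6 arrays left out) 0 of the 32 genes were called in either direction. Of 480 single values, 39 had the opposite sign, spread over 18 genes. The macrophage and shared leukocyte median of -0.13 was 0.02 with array weights and ranged from -0.26 to 0.14 with 1 array left out, being above 0 without Get1 +/- array 6. The mast cell median of -0.97 ranged from -1.40 (without Get1 +/- array 4) to -0.57 (without Get1 +/- array 6), and the antigen presentation median of -0.17 from -0.30 to -0.04 with 1 array left out and was -0.34 with array weights. The lymphoid median of -0.33 was -0.87 with an offset of 1 and 0.08 without array 6.

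The count of other immune genes called higher was 0 and became 1 (S100a9) with an offset of 64, with the dimmest 50% left out, with probe sets averaged, with centred arrays and with array weights (adjusted p 0.0210, 0.0466, 0.0366, 0.0314 and 0.0271), and 2 (S100a9 and S100a8) with the trended robust fit. With 1 array left out it was 0 to 1, the 1 being Ccl6 without array 6. The cause was not tested. No paired analysis was possible because every array has its own second number in the titles, and the first number, 2 for 5 arrays and 1 for Get1 -/- array 1, forms no pairs. Within the 5 arrays numbered 2, 0 genes of the set were called, and the medians were -0.21 for macrophage and shared leukocyte, -0.82 for mast cell, -0.63 for lymphoid and -0.27 for antigen presentation genes.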

Other observations

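Of 13 interferon response genes tested, 0 were called (limma, 2 at an unadjusted p under 0.05, against 7.93% of all genes tested). The differences of 12 were above 0, with Mx1 among them at 0.00, where 5746 of all 12735 genes tested had a difference above 0. Their median was 0.26 with all arrays and 0.42 without Get1 +/- array 6. Irf9, part of the factor that answers type I interferon, read 757, 461 and 526 in Get1 -/- bladders and 427, 297 and 328 in Get1 +/- bladders, a difference of 0.69 (limma adjusted p = 0.562) with groups apart. Oas1a, Ifit1 and Gbp3, which interferon induces, differed by 1.34, 0.88 and 0.58 (limma adjusted p = 0.633, 0.603 and 0.633), with overlapping groups, and by 1.92, 1.21 and 0.75 without array 6.

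Of 10 other complement genes 0 were called (limma, 2 at an unadjusted p under 0.05, against 7.93% of all genes tested). The surface regulator Cd59a read 449, 339 and 437 in Get1 -/- bladders and 749, 668 and 619.5 in Get1 +/- bladders, a difference of -0.72 (limma adjusted p = 0.405), while Cd55, another regulator, differed by 0.60 (limma adjusted p = 0.624), both with groups apart. C1s1 and C3ar1 differed by 0.34 and 0.46. Of 4 tested genes of T and NK cells and 4 of B cells 0 were called (limma, 0 and 1 at an unadjusted p under 0.05, against the same 7.93%). Gata3, Id2, Cd247 and Zap70 differed by 0.43, -0.27, 0.46 and 0.28 (0.29, -0.23, -0.07 and 0.55 without array 6), and Vpreb1, Igll1 and Ebf1 by 0.75, 0.42 and -0.48; Gata3, Id2 and Ebf1 are also expressed outside lymphoid cells. Blnk, an adaptor of B cells and macrophages, differed by -0.55 (limma adjusted p = 0.603) with groups apart. Of the 5 smooth muscle, 6 endothelium and 2 erythroid markers tested 0 were called, with medians of 0.24, -0.22 and -0.03. At an unadjusted p under 0.05 (limma) there were 2, 1 and 0, against 7.93% of all genes tested. All 5 smooth muscle differences were above 0. Of the smooth muscle markers Des (0.80) and Cnn1 (0.58) had groups apart, and of the endothelium markers Cdh5 (0.41), as had 13.4% of all genes tested.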
